A study of Pyrus hybrid rootstock with 24 samples.

Results

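Small auxin-up RNA (SAUR) genes are early auxin response genes of plants. Of the 42812 genes listed for each library, 7 carry the name SAUR among the auxin genes that the study displayed as differing between its heterografts and homografts. They are Pbr009936.1, Pbr042214.1, Pbr023263.2, Pbr023262.1, Pbr010681.1, Pbr040904.2, and Pbr018494.1.

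The samples were graft unions of micro-grafted pear plantlets, in which a scion shoot was joined to a rootstock stem in culture. Heterografts had a scion of “QAUP-1” (Pyrus ussuriensis) on a rootstock of “Qingzhen D1” (Pyrus communis × Pyrus bretschneideri), and homografts had “Qingzhen D1” as both scion and rootstock. Unions were collected at 1, 5, 9, and 30 days after grafting, which the study named the separation (SS), callus formation (CF), cambium differentiation (CD), and vascular connection (VC) stages. These 4 stages are called DSS, DCF, DCD, and DVC in heterografts and SSS, SCF, SCD, and SVC in homografts. Each of the 8 conditions had 3 biological replicates, so each graft type had 12 libraries and the study 24. Both graft types were kept on a medium with a cytokinin, sucrose, and indole-3-butyric acid, which is itself an auxin. RNA of scion and rootstock was not separated, and “QAUP-1” grafted on itself was not analysed here, so the scion genotype and the response to a foreign rootstock cannot be told apart.

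Auxin is perceived in the nucleus, where it leads to the breakdown of AUX/IAA repressors and frees the transcription factors that they hold. Genes that are then transcribed within minutes include SAUR, GH3, and AUX/IAA genes. SAUR proteins are short and short-lived. In Arabidopsis, several of them inhibit a group of protein phosphatases and thereby keep the proton pumps of the plasma membrane active, which acidifies the cell wall and lets cells expand. Auxin that flows from scion to rootstock is known to take part in the rejoining of vascular tissue at graft unions of Arabidopsis. What any one of the 7 pear genes does is not known from the sources used here, and single genes are therefore described by their values.

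The values are FPKM, in which the fragments of a gene are divided by its length and by the fragments of the library. Whole reads could be worked back from FPKM for 32966 of 32966 genes found in 4 or more libraries, to within a tolerance of 0.02 reads, and reads are given beside FPKM because SAUR genes had few of them. Heterograft libraries had 10374009 to 13372309 reads on genes and homograft libraries 11002393 to 13630155, so depth overlapped between graft types. No gene names accompany the identifiers, so the tissue could not be checked against marker genes, and the SAUR names rest on the study alone. The lengths implied by FPKM were multiples of 3, as in coding sequence, and were 276 bp for Pbr042214.1, 279 bp for Pbr023263.2, 282 bp for Pbr040904.2, 303 bp for Pbr009936.1 and for Pbr023262.1, 381 bp for Pbr010681.1, and 516 bp for Pbr018494.1. Without the stop codon, these lengths hold 91 to 126 codons in 6 of the genes and 171 in Pbr018494.1. Pbr023262.1 and Pbr023263.2 have consecutive identifiers. Reads that SAUR copies share could be counted to the wrong copy, as the treatment of such reads is not given in the sources used here.

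All 7 SAUR genes passed the filter for low values (3 or more libraries at an FPKM of 1 or above), as did 26895 genes in all. Pbr009936.1 passed it only through heterografts, in which all 9 of its libraries at or above an FPKM of 1 were found. The SAUR genes were low in these unions. By mean FPKM over the 24 libraries, Pbr018494.1 was the highest, at 5.96 FPKM and at percentile 36.9 of the tested genes. Pbr009936.1 and Pbr042214.1 averaged 2.97 and 2.91 FPKM, at percentiles 23.8 and 23.6. Pbr040904.2 and Pbr010681.1 averaged 1.93 and 1.80 FPKM, at percentiles 17.0 and 16.0. Pbr023262.1 averaged 1.07 FPKM, at percentile 8.79, and Pbr023263.2 averaged 0.417 FPKM, at percentile 0.573.

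Few reads stand behind these levels. Pbr018494.1 had 882 reads in the 24 libraries together, whereas Pbr009936.1, Pbr042214.1, Pbr010681.1, Pbr040904.2, Pbr023262.1, and Pbr023263.2 had 250, 229, 202, 155, 91, and 33. Pbr018494.1, Pbr042214.1, and Pbr040904.2 had at least 1 read in every library, and Pbr023263.2 had none in 13 of them. Depending on gene and library, 1 read was worth 0.142 to 0.349 FPKM. Between replicates, the variance of the reads was 1.71 (Pbr023263.2) to 3.61 (Pbr018494.1) times that of counting alone. The intervals of read ratios given below are exact, at a level of 95%, and cover counting error only.

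The mean summed FPKM of the listed SAUR genes was highest in heterografts on days 1 and 30. Summed over the 7 genes, DSS had an FPKM of 28.4 ± 5.50, DCF of 16.8 ± 6.66, DCD of 15.6 ± 2.27, and DVC of 23.7 ± 8.56 (SD, n = 3 each). Among homografts, SSS had a sum of 11.3 ± 1.46, SCF of 15.1 ± 6.11, SCD of 11.1 ± 0.79, and SVC of 14.6 ± 1.81. The 3 DSS libraries lay between 23.9 and 34.5, above all SSS libraries, the highest of which was at 12.3. The DVC libraries, between 17.4 and 33.5, overlapped with DCF (12.8 to 24.5), DCD (13.5 to 18.0), and SCF (10.1 to 21.9). DCF also overlapped with DSS. The genes were chosen on differences between graft types, so these sums are a description. The sum in heterografts changed its main source between days 1 and 30. Pbr009936.1 made up 64.3% of the mean sum in DSS and 4.76% in DVC, where Pbr018494.1 made up 42.3%. Without Pbr009936.1, the sum was 10.1 ± 1.79 in DSS, against 11.2 ± 1.40 in SSS, and 22.6 ± 8.89 in DVC, against 14.6 ± 1.81 in SVC.

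**Figure D1:**
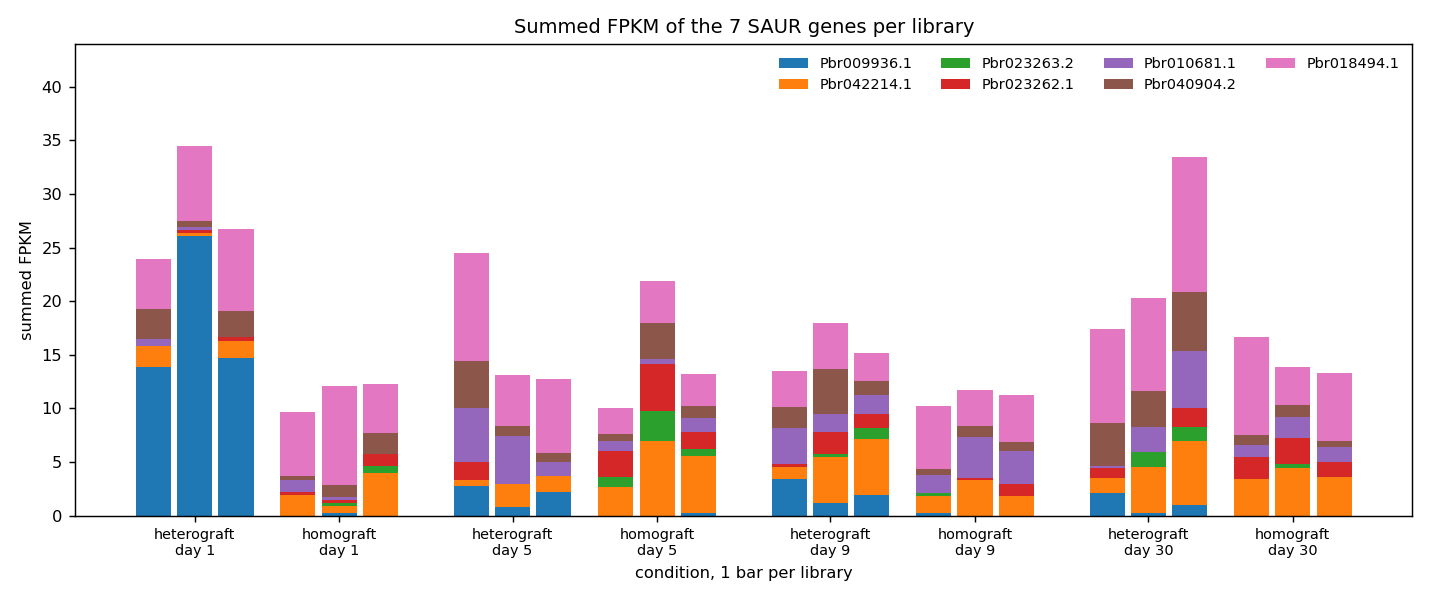
Stacked bars give the FPKM of the 7 SAUR genes, 1 bar for each of the 24 libraries, grouped by graft type and day after grafting. Pbr009936.1 takes most of the bars of day 1 heterografts (64.3% of their mean), whereas Pbr018494.1 is the largest part of the mean of day 1 homografts (58.0%).

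Pbr009936.1 was the SAUR gene with the widest range, and nearly all of its reads were in heterografts. Its FPKM was 13.9, 26.1, and 14.7 in the 3 DSS libraries, with 48, 92, and 51 reads. It was 2.75, 0.838, and 2.19 in DCF, then 3.41, 1.19, and 1.91 in DCD, and 2.14, 0.261, and 0.987 in DVC. Every heterograft library therefore held at least 1 read, and the DSS libraries stood above all others. In homografts, 3 of 12 libraries held a single read each, with 0.279 FPKM in SSS replicate 2, 0.269 in SCF replicate 3, and 0.242 in SCD replicate 1, and the other 9 held none. In total, 247 of its 250 reads came from heterografts and 3 from homografts.

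The study chose the genes on the comparison of heterografts with homografts, so values of this comparison are a description and were not tested. Pbr009936.1 differed most. On the scale of log2(FPKM + 1), DSS minus SSS was 4.09 ± 0.32 (SE of the limma fit, n = 3 each), with 191 reads in DSS and 1 in SSS, which is a ratio of 190.0 (33.7 to 7543). The same difference was 1.37 on day 5 (21 reads in DCF against 1 in SCF), 1.5 on day 9 (23 in DCD against 1 in SCD), and 0.99 on day 30. On day 30, DVC had 12 reads and SVC none, and Pbr009936.1 was 3.87-fold higher in DVC when SVC is set at 3 reads over its 3 libraries. This value leaves out the counting error of the DVC reads and is not a lower limit. Heterograft and homograft libraries of this gene did not overlap on any of the 4 days. In bulk samples such as these unions, fewer cells of a type and less RNA per cell cannot be told apart.

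Within heterografts, Pbr009936.1 changed with stage. Such changes were tested for each graft type by a limma F test of the 3 later stages against day 1, with Benjamini-Hochberg adjustment over all tested genes. The adjusted p of Pbr009936.1 was 7.03e-07 in heterografts, and an exact permutation test over the 12 libraries gave p = 0.00779. Relative to DSS, DCF fell by 2.73 ± 0.32, DCD fell by 2.61 ± 0.32, and DVC fell by 3.22 ± 0.32 on the log2 scale (SE, limma adjusted p = 6.82e-06, 8.42e-06, and 1.78e-07). In reads, DCF had 0.106 (0.0638 to 0.166) and DVC 0.0588 (0.0299 to 0.105) of the DSS level. The 9 later heterograft libraries all lay below the 3 DSS libraries, whereas among DCF, DCD, and DVC the libraries overlapped. In homografts the adjusted p was 0.983, and with 3 reads in 12 libraries no change was detectable at this depth. The DSS libraries also entered the comparison on which the gene was chosen, so the decline from day 1 is not independent of the choice, and the same holds for the stage contrasts of the other SAUR genes.

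**Figure D2:**
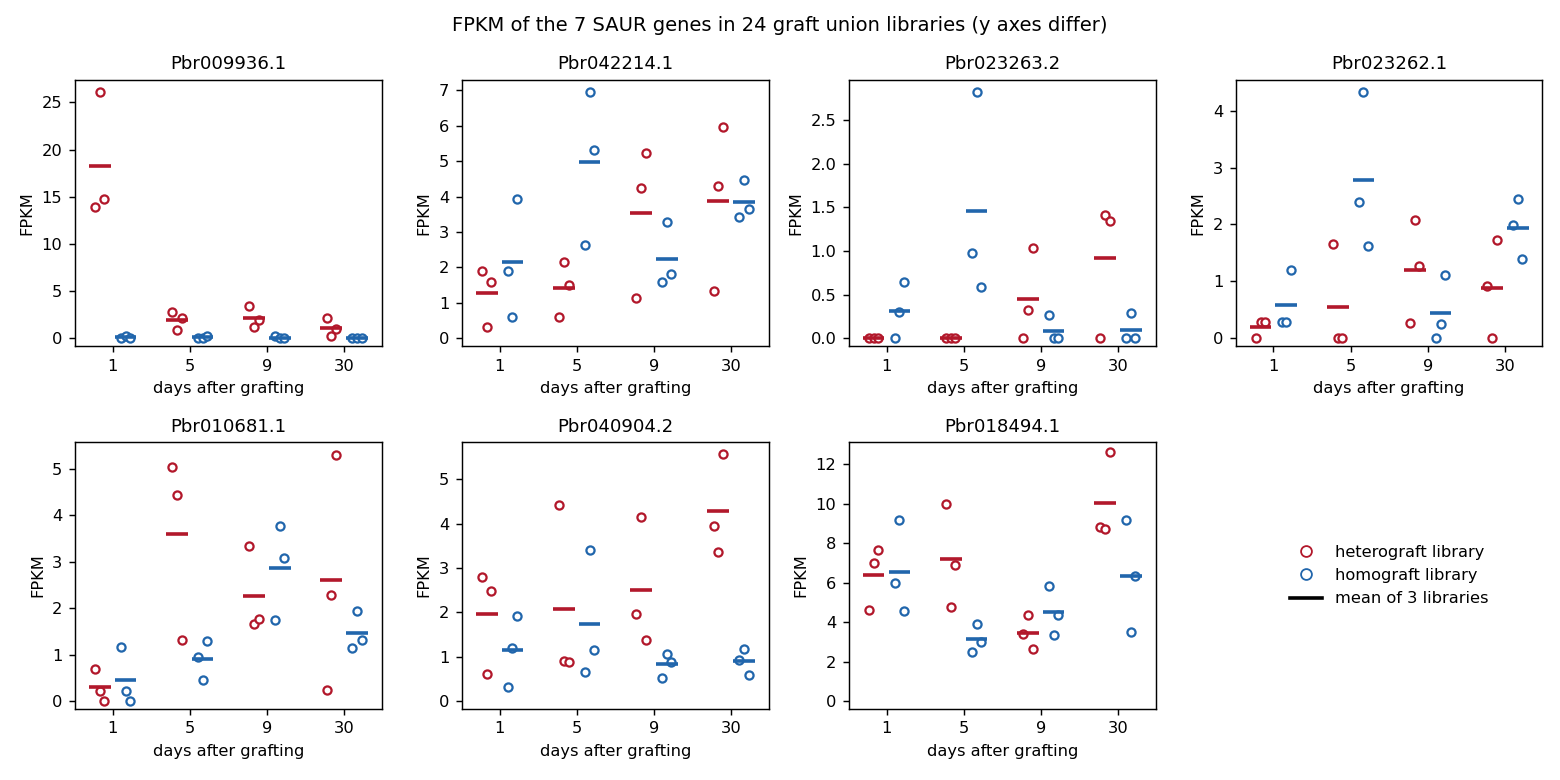
Points give the FPKM of each SAUR gene in each library against days after grafting, heterografts left of homografts, and bars give the mean of 3 libraries. Only the day 1 heterografts of Pbr009936.1 (13.9 to 26.1 FPKM) stand apart from the condition with the next lower mean, and conditions next to each other by mean overlap elsewhere.

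Pbr042214.1, Pbr023263.2, and Pbr023262.1 had their highest mean in SCF, the callus formation stage of homografts, and were lower in DCF. This grouping was made after the values were seen and was not tested. For Pbr042214.1, FPKM was 0.604, 2.15, and 1.5 in DCF, against 2.63, 6.97, and 5.32 in SCF. The DCF libraries all lay below the SCF libraries, with 14 reads against 48, a ratio of 0.28 (0.14 to 0.52), and the log2 difference was -1.29 ± 0.47 (SE). By days 9 and 30 the libraries of this gene overlapped between graft types, at 1.15, 4.24, and 5.24 FPKM in DCD, against 1.59, 3.28, and 1.82 in SCD. On day 30, its values were 1.34, 4.30, and 5.96 in DVC, against 3.44, 4.48, and 3.65 in SVC. On day 1 it had 1.91, 0.311, and 1.59 FPKM in DSS, against 1.91, 0.612, and 3.93 in SSS, which overlapped.

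Pbr042214.1 did not pass the stage test in either graft type, with limma adjusted p = 0.126 in heterografts and 0.209 in homografts. Its DVC minus DSS difference was 1.04 ± 0.47 (SE, adjusted p = 0.0832) and its SCF minus SSS difference 0.99 ± 0.47 (adjusted p = 0.132). In heterografts it passed when replicate 1 of DVC, its lowest library there, was left out (adjusted p = 0.0416), and likewise without replicate 1 of DCD (0.0356).

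Pbr023263.2 was the rarest of the SAUR genes and was not found before day 9 in heterografts. All 3 DSS and all 3 DCF libraries were without a read, which allows up to 0.312 and 0.300 FPKM (3 reads over the 3 libraries of a condition). In DCD its FPKM was 0, 0.323, and 1.04, and in DVC 0, 1.42, and 1.34, from 4 and 10 reads. In homografts it was 0, 0.303, and 0.649 in SSS, then 0.977, 2.82, and 0.585 in SCF. It was 0.263, 0, and 0 in SCD and 0, 0.296, and 0 in SVC. The gene was therefore found in every SCF library and in 1 library each of SCD and SVC. With 0 reads in DCF and 14 in SCF, it was 4.83-fold lower in DCF when DCF is set at 3 reads, and the log2 difference was -1.19 ± 0.33 (SE). The fold leaves out the counting error of the SCF reads and is not a lower limit. On day 30 the order was the other way, with 10 reads in DVC against 1 in SVC, a ratio of 9.68 (1.38 to 420.3), although the DVC and SVC libraries overlapped.

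Pbr023263.2 changed with stage in homografts (limma adjusted p = 0.0301, exact permutation p = 0.0266), and no single stage contrast of it passed. SCF minus SSS was 0.83 ± 0.33 (SE, limma adjusted p = 0.0745). SCD minus SCF was -1.08 ± 0.33 (adjusted p = 0.626), a comparison in which no gene of the 26895 passed. The stage call rested on SCF replicate 2, its highest library with 9 reads, without which the adjusted p was 0.237. It was also lost without SVC replicate 1 (0.0528) or 3 (0.0522), with a pseudocount of 0.1 (0.0612), and with voom on the recovered reads (0.0643). In heterografts the adjusted p was 0.0993, and 0.0107 without DVC replicate 1, which held no read.

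Pbr023262.1, whose identifier comes just before that of Pbr023263.2, was seen in most homograft libraries. The SSS libraries had 0.290, 0.279, and 1.19 FPKM and the SCF libraries 2.40, 4.33, and 1.62. The SCD libraries had 0, 0.249, and 1.1 FPKM and the SVC libraries 1.99, 2.45, and 1.38. Every SCF and SVC library thus lay above every SSS and SCD library. In heterografts it was 0, 0.284, and 0.289 in DSS and 1.65, 0, and 0 in DCF. It was 0.262, 2.08, and 1.27 in DCD and 0.919, 0, and 1.73 in DVC. The single DCF library with reads, replicate 1, overlapped with SCF. DCF had 6 reads against 29 in SCF, a ratio of 0.20 (0.07 to 0.49), and the log2 difference was -1.39 ± 0.43 (SE).

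Pbr023262.1 changed with stage in homografts (limma adjusted p = 0.0232, exact permutation p = 0.0163). It rose by 1.24 ± 0.43 in SCF relative to SSS on the log2 scale (SE, limma adjusted p = 0.0389), with 29 reads in SCF against 6 in SSS, a ratio of 4.77 (1.95 to 14.1). SCD had 5 reads and SVC 21, and the SCD minus SCF difference of -1.39 ± 0.43 and the SVC minus SCD difference of 1.08 ± 0.43 did not pass (adjusted p = 0.626 and 0.0735). The stage call was lost without SCF replicate 2 (adjusted p = 0.0677), without SCD replicate 1 (0.0566), and with a pseudocount of 0.1 (0.102). The rise in SCF had an adjusted p of 0.0503 with a replicate block, 0.0936 with voom, 0.17 with a pseudocount of 0.1, and 0.0696 to 0.167 without replicate 1 or 2 of SSS or of SCF. In heterografts it did not pass the stage test (adjusted p = 0.351).

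Pbr010681.1 was low on day 1 in both graft types and higher later, on day 5 in heterografts and on day 9 in homografts. Its FPKM was 0.691, 0.226, and 0 in the DSS libraries and 5.03, 4.44, and 1.3 in the DCF libraries. It was 3.33, 1.65, and 1.77 in DCD, and 0.244, 2.28, and 5.30 in DVC. All DCF and DCD libraries lay above all DSS libraries, while DVC ranged from 1 read in replicate 1 to 27 reads in replicate 3. In homografts it was 1.15, 0.222, and 0 in SSS and 0.954, 0.459, and 1.28 in SCF, which overlapped. It was 1.73, 3.76, and 3.07 in SCD, above every SSS and SCF library, and 1.13, 1.95, and 1.32 in SVC. On day 5, DCF had 49 reads against 12 in SCF, a ratio of 3.95 (2.07 to 8.16), and the log2 difference was 1.18 ± 0.46 (SE), with all DCF libraries above the SCF libraries. On day 9 the libraries overlapped, with 30 reads in DCD against 42 in SCD, a ratio of 0.81 (0.49 to 1.33).

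Pbr010681.1 changed with stage in heterografts (limma adjusted p = 0.0209), whereas the exact permutation p was 0.113. Relative to DSS, the rise was 1.73 ± 0.46 in DCF, 1.31 ± 0.46 at the DCD stage, and 1.21 ± 0.46 at the DVC stage on the log2 scale (SE, limma adjusted p = 0.0104, 0.0387, and 0.0397). In reads, DCF was at 11.8 (4.31 to 44.9) times, DCD at 7.58 (2.67 to 29.6) times, and DVC at 9.13 (3.29 to 35.2) times the level of DSS, which had 4 reads. In homografts it rose by 1.44 ± 0.46 in SCD relative to SSS (SE, limma adjusted p = 0.0238), with 42 reads in SCD against 6 in SSS, while the test over all stages gave an adjusted p of 0.0655 (0.0402 without SSS replicate 1, and 0.0144 when only homograft libraries were fitted) and an exact permutation p of 0.0108. The heterograft stage call was lost without DSS replicate 2 (adjusted p = 0.0708) or 3 (0.0983), when only heterograft libraries were fitted (0.0767), and with voom (0.0526). The rise in DCF did not pass without DCF replicate 1 (0.0546). Those in DCD and DVC did not pass without DSS replicate 2 or 3, any one DCD library, or DVC replicate 2 or 3 (0.0559 to 0.256), nor that in SCD without replicate 2 or 3 of SSS or of SCD (0.0642 to 0.0980). The DVC value of 1.21 was 0.66 without DVC replicate 3, and 1.83 without replicate 1. The differences of DCD and DVC from DSS were 2.87 and 2.51 on the log2 scale of voom, which adds less to low values, and did not pass there.

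Pbr040904.2 was higher in heterografts on day 30. Its FPKM was 3.95, 3.36, and 5.57 in DVC, against 0.917, 1.17, and 0.595 in SVC, and all DVC libraries lay above the SVC libraries. With 45 reads in DVC against 9 in SVC, the ratio was 4.84 (2.34 to 11.3), and the log2 difference was 1.47 ± 0.44 (SE). On day 9 it was 1.97, 4.15, and 1.37 in DCD, against 0.520, 1.07, and 0.890 in SCD, which did not overlap either. On days 1 and 5 the graft types overlapped, at 2.80, 0.609, and 2.48 in DSS, against 0.312, 1.2, and 1.93 in SSS. On day 5, FPKM was 4.43, 0.901, and 0.881 in DCF, against 0.645, 3.41, and 1.16 in SCF, with 1 high library in each. The gene did not pass the stage test in heterografts (limma adjusted p = 0.203) or in homografts (0.768). Without DCF replicate 1, the high library of that condition, the adjusted p in heterografts was 0.0437.

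Pbr018494.1, the longest of the SAUR genes and the one with most reads, was found in all libraries at 2.47 FPKM or more. Its FPKM was 4.59, 6.99, and 7.64 in the DSS libraries and 10.01, 4.76, and 6.90 in the DCF libraries. It was 3.38, 4.36, and 2.62 in DCD, and 8.81, 8.73, and 12.6 in DVC. DVC therefore lay above DCD and above DSS in every library, and DCD was the lowest heterograft stage. The SSS libraries had 5.97, 9.16, and 4.56 FPKM and the SCF libraries 2.47, 3.89, and 3.0. The SCD libraries had 5.83, 3.36, and 4.38 FPKM and the SVC libraries 9.19, 3.52, and 6.34. SCF was below SSS in every library, and SCD overlapped with SCF and with SVC.

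Pbr018494.1 changed with stage in heterografts (limma adjusted p = 0.00881, exact permutation p = 0.0138). It rose by 1.31 ± 0.30 in DVC relative to DCD on the log2 scale (SE, limma adjusted p = 0.00451), with 193 reads in DVC against 61 in DCD, a ratio of 2.93 (2.19 to 3.97). DCD minus DCF was -0.85 ± 0.30 (adjusted p = 0.113). In homografts the adjusted p over all stages was 0.0731 (0.0483 without SSS replicate 3 and 0.0189 without SVC replicate 2), and SCF minus SSS was -0.84 ± 0.30 (adjusted p = 0.0418), a difference below the fold set for a call. On day 5 all DCF libraries lay above the SCF libraries, with 134 reads in DCF against 56 in SCF, a ratio of 2.31 (1.68 to 3.22). On day 30 the ratio was 1.61 (1.27 to 2.05), from 193 reads in DVC against 116 in SVC, and the libraries overlapped.

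Over all SAUR genes, 3 of 7 changed with stage in heterografts, where 48.4% of the tested genes did, and 2 of 7 in homografts, where 47.0% did. No SAUR gene passed in both graft types, and nothing is read from this, as the share of tested genes that passed in both was not calculated. Pbr010681.1 had called stage contrasts in both, with a limma adjusted p over all stages of 0.0209 in heterografts and 0.0655 in homografts. Whether a gene changed differently with stage in heterografts and homografts was not tested, because the genes were chosen on differences between graft types. Of the 70 contrasts of a later with the preceding stage or with day 1, 9 passed a limma adjusted p of 0.05 with more than 1 on the log2 scale in either direction, and 6 of them were increases. These 9 came from 4 genes, and 5.49% of such contrasts passed over all tested genes. At the unadjusted p, 14 passed, and nothing is read from this count, as it has no share over all tested genes beside it. In heterografts, 1 of 7 SAUR genes rose and 1 fell in DCF relative to DSS, where 2.25% of tested genes rose and 1.65% fell. The same 2 genes were called in DCD relative to DSS, where 3.6% rose and 2.49% fell, and in DVC relative to DSS, where 6.41% rose and 3.73% fell. In DVC relative to DCD, 1 of 7 rose, against 1.71% of tested genes. In homografts, 1 of 7 rose in SCF relative to SSS, against 3.93% of tested genes, and 1 of 7 rose in SCD relative to SSS, against 5.16%. No fall was called among these, where 2.61% of tested genes fell in SCF and 2.69% in SCD.

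The remaining stage contrasts had 0 SAUR calls by limma at an adjusted p. In SVC relative to SSS, 7.4% of tested genes rose and 3.81% fell (1990 and 1024 genes, and 1564 and 1303 with upper-quartile scaling), and 0 SAUR genes passed at an unadjusted p or with voom. In SCD relative to SCF, 0.0% of tested genes were called in either direction, and at an unadjusted p Pbr010681.1 was higher and Pbr023263.2 and Pbr023262.1 lower. In SVC relative to SCD, 2.75% rose and 2.36% fell, and Pbr023262.1 was higher at an unadjusted p. In DCD relative to DCF, 0.461% rose and 0.543% fell, and 0 SAUR genes passed at an unadjusted p. With voom on recovered reads, these contrasts had 0 SAUR calls at an adjusted p as well. In DVC relative to DCD, where 1.38% of tested genes fell, the 1 SAUR call was the rise of Pbr018494.1.

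**Figure D3:**
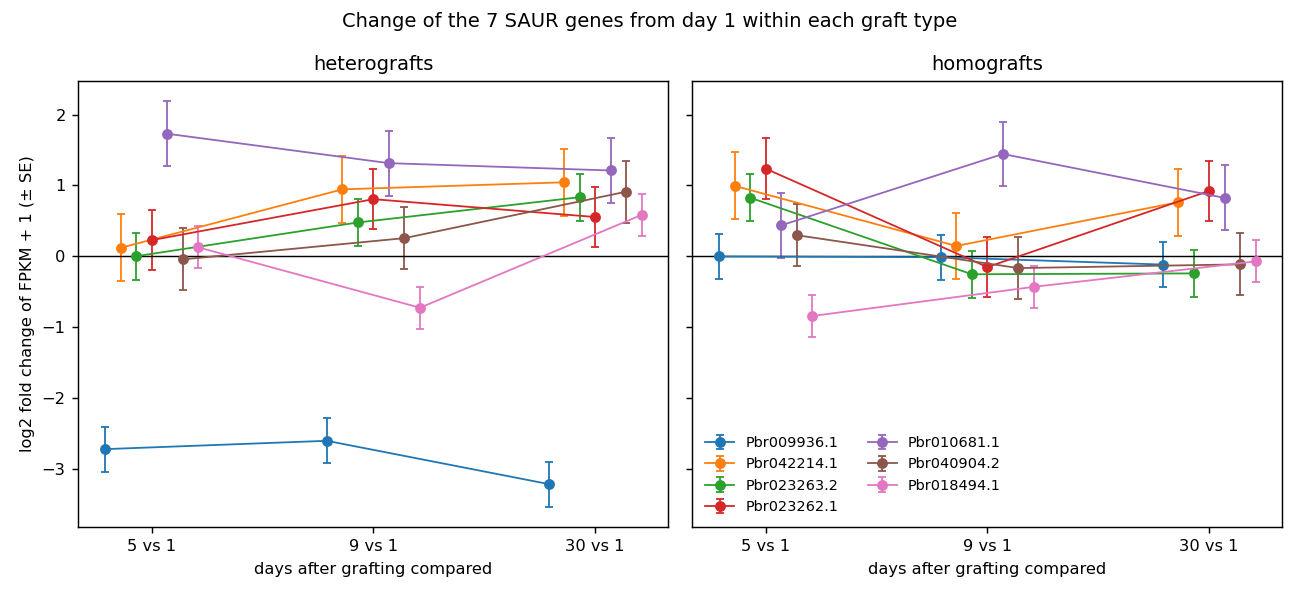
Points give the log2 fold change of FPKM + 1 of each later stage relative to day 1, with the SE of the limma fit, for heterografts on the left and homografts on the right. In heterografts Pbr009936.1 lies between -3.22 and -2.61 and Pbr010681.1 between 1.21 and 1.73, and the homograft points lie between -0.84 and 1.44.

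The median SAUR gene moved with stage as follows, beside the median over all tested genes. In heterografts the median log2 difference from DSS was 0.12 at DCF (all tested genes 0.01), 0.48 at DCD (0.09), and 0.83 at DVC (0.12), with 6 of 7 genes above 0 in DVC. In homografts the median log2 difference from SSS was 0.44 at SCF (all tested genes 0.1), -0.15 at SCD (0.1), and -0.07 at SVC (0.17), with 5, 2, and 3 of 7 genes above 0. These medians are a description of a list chosen on the same libraries.

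Between graft types, the largest number of SAUR genes was called on day 5. At the criteria of the study, a log2 difference beyond 1 in either direction with p under 0.05 and no adjustment, 1 of 7 was called on day 1 (4.48% of tested genes), 5 on day 5 (1.51%), 1 on day 9 (0.528%), and 1 on day 30 (0.673%). The study selected the genes by such calls, so nothing is read from these shares. On day 5, Pbr009936.1 and Pbr010681.1 were higher in DCF and Pbr042214.1, Pbr023263.2, and Pbr023262.1 lower. The median SAUR difference between heterografts and homografts was -0.11 on day 1, 0.1 on day 5, 0.39 on day 9, and 0.65 on day 30, and the median of all tested genes was 0.06, -0.03, 0.02, and 0.01. On day 1, 2 of 7 SAUR genes were higher in heterografts, and on days 5, 9, and 30 it was 4, 5, and 5. The libraries of the graft types did not overlap for 1 SAUR gene on day 1 (30.7% of tested genes), 5 on day 5 (22.2%), 2 on day 9 (9.83%), and 2 on day 30 (11.9%).

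Just inside the fold threshold, the smallest difference was 1.18 for Pbr010681.1 on day 5. Just outside it, the largest were 0.99 for Pbr009936.1 on day 30, 0.96 for Pbr018494.1 on day 5, and 0.87 for Pbr040904.2 on day 9.

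**Figure D4:**
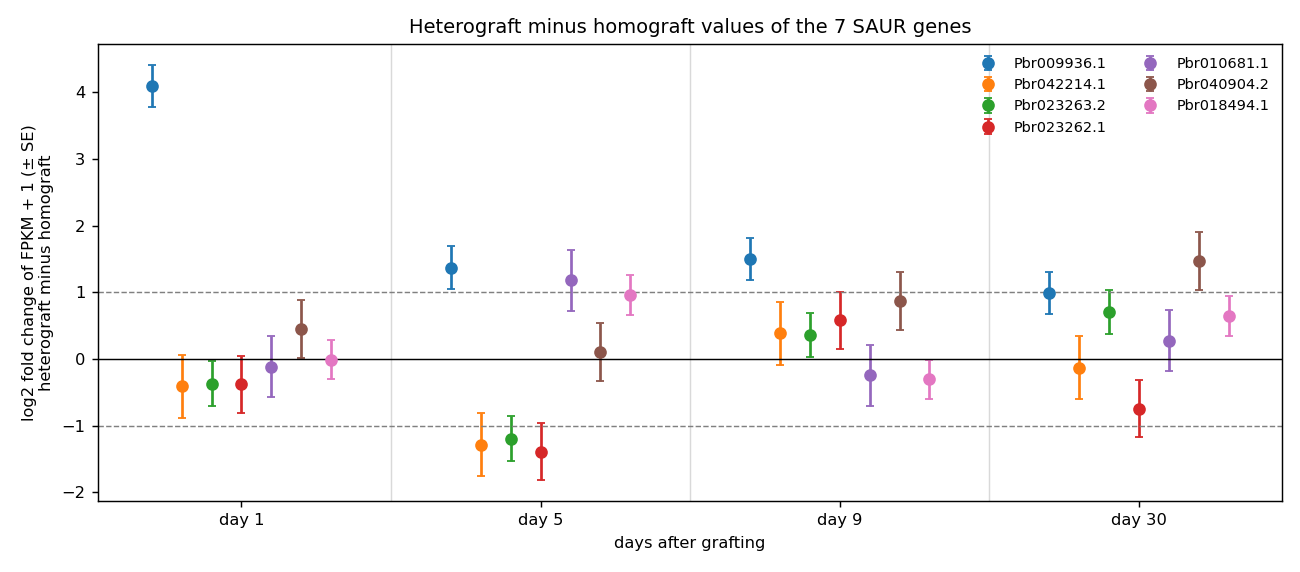
Points give the heterograft minus homograft difference of each SAUR gene on the log2 scale of FPKM + 1, with the SE of the limma fit, by days after grafting, and dashed lines mark the fold threshold of 1. Pbr009936.1 lies at 4.09 on day 1, and on day 5 Pbr042214.1, Pbr023263.2, and Pbr023262.1 lie between -1.39 and -1.19.

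Ordered by mean FPKM over the 8 conditions, only 1 step between neighbours was larger than the spread of the libraries. For Pbr009936.1, DSS at 18.2 ± 6.81 (SD, n = 3) did not overlap with DCD, the next condition, at 2.17 ± 1.13. All other neighbouring conditions overlapped in all 7 genes. The highest condition was SCF for Pbr042214.1 (4.97 ± 2.19), Pbr023263.2 (1.46 ± 1.19), and Pbr023262.1 (2.78 ± 1.39). It was DCF for Pbr010681.1 (3.59 ± 2.0) and DVC for Pbr040904.2 (4.29 ± 1.14) and Pbr018494.1 (10.05 ± 2.22). The lowest condition was DSS for Pbr042214.1 (1.27 ± 0.84), Pbr023262.1 (0.191 ± 0.165), and Pbr010681.1 (0.306 ± 0.352). For Pbr023263.2, DSS and DCF were both at 0. It was a homograft condition for the others, with SVC for Pbr009936.1 (0), SCD for Pbr040904.2 (0.827 ± 0.280), and SCF for Pbr018494.1 (3.12 ± 0.72).

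The listed SAUR genes did not all vary together, and SAUR genes outside the list were not examined. All but Pbr018494.1 had only 33 to 250 reads in all, and counting error at such depth weakens r. Over the 24 libraries, Pearson's r of log2(FPKM + 1) in the 21 pairs of SAUR genes ran from -0.53 to 0.67 with a median of 0.11, and 11 pairs were above 0 and 10 below. The median r of a SAUR gene with all other tested genes was between -0.05 (Pbr009936.1) and 0.14 (Pbr042214.1). These values describe libraries that share their conditions. The most alike were Pbr042214.1 and Pbr023263.2, with r = 0.67 and Spearman's rho = 0.70, and with r = 0.84 within the 12 heterograft and 0.49 within the 12 homograft libraries. Pbr042214.1 and Pbr023262.1 had r = 0.55, with 0.32 within heterografts and 0.74 within homografts. Pbr023262.1 and Pbr023263.2, of consecutive identifiers and alike in coding length, had r = 0.49. The least alike were Pbr009936.1 and Pbr042214.1, with r = -0.53. Once each library was taken as its deviation from the mean of its condition, r was 0.60 for Pbr042214.1 with Pbr023263.2, 0.18 for Pbr042214.1 with Pbr023262.1, and 0.27 for Pbr023263.2 with Pbr023262.1, while it was 0.65 for Pbr023262.1 with Pbr040904.2, a pair with r = 0.26 over the libraries as measured.

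**Figure D5:**
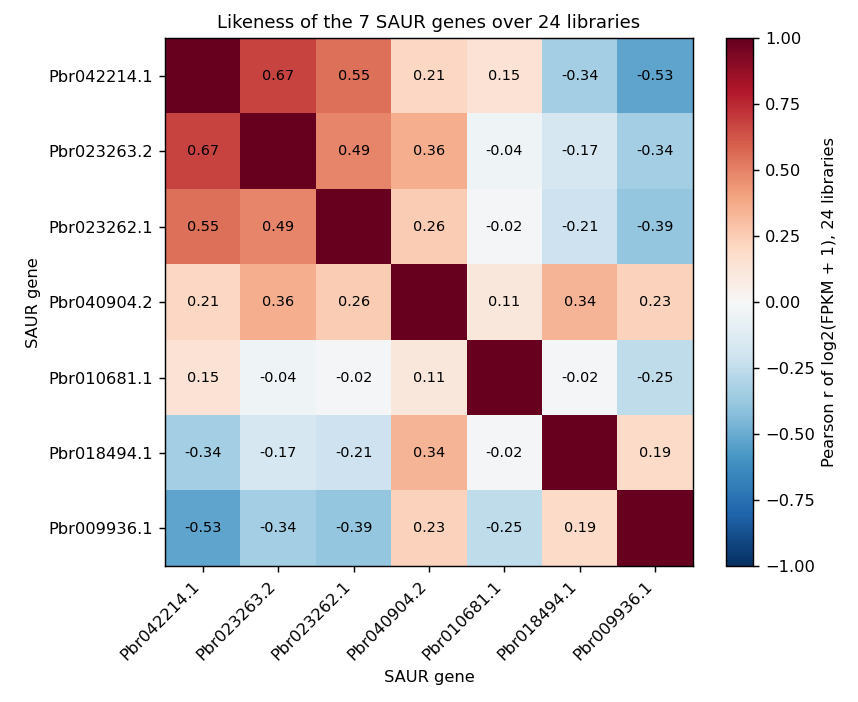
Cells give Pearson's r of log2(FPKM + 1) over the 24 libraries for each pair of SAUR genes, from blue at -1 to red at 1. Pbr042214.1, Pbr023263.2, and Pbr023262.1 form the red block at the upper left, with r of 0.49 to 0.67, and of 0.18 to 0.60 for deviations from condition means.

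The nearest tested gene to each listed SAUR gene was not another of the listed SAUR genes. Far more other genes than listed SAUR genes were compared, so this was likely by numbers alone and nothing is read from it. Whether a nearest gene is itself a SAUR gene is not known, as no gene names accompany the identifiers. Among the other 26894 tested genes, the best rank that a SAUR gene reached was 6, for Pbr042214.1 beside Pbr023263.2, and the nearest SAUR gene to Pbr009936.1, Pbr040904.2, ranked 6683 with r = 0.23. The nearest SAUR gene ranked 112 for Pbr042214.1, 346 for Pbr023262.1, 1649 for Pbr040904.2, 3043 for Pbr018494.1, and 11952 for Pbr010681.1. The gene most like Pbr009936.1 was Pbr002185.1, with r = 0.95 and rho = 0.89 over the 24 libraries. Its FPKM was 8.41 ± 3.92 in DSS, against 0.0347 ± 0.0602 in SSS (SD, n = 3 each), and 0.660 to 0.933 on average at the later heterograft stages. The gene most like Pbr010681.1 was Pbr036124.2, with r = 0.83 and rho = 0.80. Its FPKM was 35.8 ± 7.40 in DCF and 21.5 ± 4.34 in DSS, and in homografts 29.0 ± 0.94 in SCD and 21.9 ± 4.54 in SSS. Both were named as the nearest genes to the 2 SAUR genes with the closest match. As they were picked for this likeness, levels that follow those of the SAUR gene were given by the choice.

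Most of the called stage contrasts of the other auxin genes that the study named were decreases. This list, also chosen by the study on these libraries, holds AUX1 genes Pbr033508.2 and Pbr029742.1, which encode carriers that bring auxin into cells, the AUX/IAA repressor gene Pbr033492.1, and GH3 genes Pbr030688.1 and Pbr007550.1, whose products join auxin to amino acids. Of these 5 genes, 2 passed the stage test in heterografts, where 48.4% of tested genes did, and 3 in homografts, where 47.0% did. Of their 50 stage contrasts, 12 were called, of which 11 were decreases, most of them of Pbr007550.1 and Pbr033492.1. Of the 70 stage contrasts of SAUR genes, 9 were called, of which 3 were decreases, all of Pbr009936.1 relative to DSS. Contrasts of the same gene share libraries, so these are not counts of independent changes. Over all tested genes, 5.49% of stage contrasts were called, and 38.7% of these were decreases. The difference between the lists was not tested. The GH3 gene Pbr007550.1 fell in both graft types, by 2.49 ± 0.26 in DVC relative to DSS and by 2.29 ± 0.26 in SVC relative to SSS (SE, limma adjusted p = 3.11e-07 and 8.35e-07). Its mean FPKM was 0.477 ± 0.064 in DVC and 8.22 ± 5.50 in DSS, and in homografts 0.481 ± 0.230 in SVC and 6.20 ± 0.054 in SSS. Day 1 was thus high in both graft types for this gene, whereas Pbr009936.1 had 191 reads in DSS and 1 in SSS. The AUX/IAA gene Pbr033492.1 fell by 2.57 ± 0.45 in SVC relative to SSS (adjusted p = 0.000145), and its DVC minus DSS difference was -0.75 ± 0.45 (adjusted p = 0.199). AUX1 gene Pbr033508.2 fell by 1.27 ± 0.29 in SVC relative to SSS (adjusted p = 0.00178), and AUX1 gene Pbr029742.1 by 1.36 ± 0.26 in DCD relative to DSS (adjusted p = 0.000765). The GH3 gene Pbr030688.1 was the single increase, by 1.34 ± 0.49 in SCF relative to SSS (adjusted p = 0.0493).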

How the data were processed

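RNA-seq was performed on 24 samples of graft unions, and the number of unions in each sample is not given in the sources used here. Per the methods of the study, reads were trimmed (Cutadapt), mapped to the P. bretschneideri scaffold genome (HISAT2), and counted for each gene (HTSeq). The authors deposited the result as FPKM values, which are not log transformed. Tests for counts were therefore not used for the main results. The 26895 genes with 3 or more libraries at an FPKM of 1 or above entered a limma fit (version 3.58.1, R 4.3.3) of log2(FPKM + 1), a scale that understates changes of low genes, with a mean-variance trend and 1 mean for each condition. Benjamini-Hochberg adjustment was over all tested genes. Stage was tested with F tests of 3 contrasts, and single genes with exact permutation tests over the 12 libraries of a graft type (15400 partitions, smallest p 6.49e-05). Differences between graft types are given as a description, with the fold and unadjusted p criteria of the study used only to count calls, since the genes were chosen on them. The fits and the recovery of reads were tested on simulated data.

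The SAUR genes and the other auxin genes were taken as the study labels them, and the members and lists were chosen with earlier results of these data known. All 12 genes are named, with the gene nearest by Pearson's r for the 2 SAUR genes of closest match. Libraries were checked for pairing by replicate number. Only DCD with SCD had a correlation of deviations above 0.1 in every pair (0.133 to 0.178), so the replicate block was an alternative and not the main fit. Other alternatives were upper-quartile scaling, no trend, filters, a pseudocount of 0.1, libraries of 1 graft type, and each library left out. Voom on recovered reads, the permutation tests, and the block in the 6 CD libraries were added after the data were seen. Replicates are separate biological samples per the methods of the study. Values were calculated with pandas 2.3.3, numpy 2.4.6, and scipy 1.17.1 under Python 3.11.15.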

Additional observations from a re-analysis of the deposited data

How the results depend on the processing

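No called SAUR difference changed direction under any alternative run. The called declines of Pbr009936.1 in heterografts and the rise of Pbr018494.1 in DVC relative to DCD passed in all alternatives, as did the heterograft stage tests of both genes. The DSS libraries entered the comparison on which Pbr009936.1 was chosen, so the passing of its declines is not independent of that choice. In homografts, 2 SAUR genes passed the stage test, and 0 with a pseudocount of 0.1, 0 with a filter at an FPKM of 5 (3 SAUR genes left to test), 1 with voom, 3 with the exact permutation test, and 4 at the unadjusted p. Leaving out 1 library gave 0 to 3, with 0 without SCF replicate 2 and 1 without SCD replicate 1, SVC replicate 1, or SVC replicate 3. In heterografts, 3 passed, and 2 to 5 when 1 library was left out, with 5 without DVC replicate 1. Of the 26895 tested genes, 12652 passed in homografts (12263 with voom and 14692 at the unadjusted p) and 13006 in heterografts. The SAUR counts show only how calls depend on processing. Of the SAUR stage contrasts, 9 were called, 4 with the filter at an FPKM of 5, 14 at the unadjusted p, 6 without a filter, 6 with voom, and 7 to 11 when 1 library was left out.

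The counts of SAUR genes called between graft types describe the contrast on which the genes were chosen. On day 5, 5 were called, and 3 without SCF replicate 2 or without DCF replicate 1. On day 9, 1 was called, and 2 without DCD replicate 3. On day 30, 1 was called, and 2 with a pseudocount of 0.1, with voom, and when any one DVC library was left out. On day 1, it was 1 throughout. With a replicate block, 2 SAUR genes passed in homografts and 3 in heterografts, as without it, and 6 stage contrasts were called, with the losses being the rise of Pbr023262.1 in SCF (adjusted p = 0.0503) and those of Pbr010681.1 in DCD (0.0520) and DVC (0.0527). In the 6 CD libraries, the block left 1 call. Upper-quartile scaling shifted the median of all genes by at most -0.12 (SVC minus SSS) and left the counts of SAUR calls unchanged. At the unadjusted p, voom called more of all tested genes between graft types, with 471 higher and 354 lower in DCF than in SCF (255 and 152 by FPKM), 289 and 115 in DCD than in SCD (96 and 46), 350 and 99 in DVC than in SVC (147 and 34), and 1263 and 729 in DSS than in SSS (753 and 451). At the adjusted p, voom called 74 and 6 in DCF (82 and 10), 0 and 0 in DCD (10 and 0), 30 and 2 in DVC (50 and 3), and 773 and 491 in DSS (656 and 389). In DCD relative to DCF, voom called 56 higher and 120 lower at the adjusted p (124 and 146 by FPKM), and 798 and 422 at the unadjusted p (425 and 271). Of the 84 alternative values of r between SAUR genes, 28 moved by 0.2 or more. Depth limits Pbr023263.2 most, with 33 reads in all.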
